A study of Mus musculus with 4 samples.

Results

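The 10 genes described here code for calprotectin and for proteins of the neutrophil's granules, and were followed in 4 single-cell libraries of mouse blood stem and progenitor cells. They were taken by name from a list: S100a8 and S100a9, Camp, Ngp, Ltf, Lcn2, Chil3, Fcnb, Cd177 and Wfdc21. All 10 were found among the 32285 genes counted in each library.

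Each library was made from donor-derived (CD45.2-positive) bone marrow cells sorted as lineage-negative, Sca1-positive and Kit-positive (LSK), a gate that holds blood stem cells and multipotent progenitors. Cells were collected 10 weeks after transplantation, and every group shares that transplantation history. There was 1 library for each of 4 genotypes: control, Mll3 deleted, Mll4 deleted and Mll3/4 deleted. The alleles, the driver of deletion and the number of mice pooled are not given in the sources used here. Mll3 and Mll4 are related histone methyltransferases, coded by Kmt2c and Kmt2d, and the series is concerned with their redundancy in blood stem cells.

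Kmt2c was counted at 68.9, 35.3, 61.3 and 42.3 unique molecular identifiers (UMIs) per 1000000 UMIs of the library (CPM) in the control, Mll3, Mll4 and Mll3/4 libraries. Kmt2d was at 24.6, 21.6, 22.6 and 25.4 in the same order, so it did not check the Mll4 labels, and the libraries are called Mll3-labelled, Mll4-labelled and Mll3/4-labelled below. Barcodes were kept as cells from 1000 detected genes upward and up to 10% mitochondrial UMIs: 7274, 6101, 4793 and 4748, with median depths of 14454, 15381, 21400 and 8920 UMIs. Every pair of libraries shared between 7 and 14 kept barcodes, and none of these was granule-high, as defined below, in both libraries. The sequence of 1 granule-high control barcode also occurred among all deposited barcodes, kept or failing, of the Mll4-labelled library. The Mll4-labelled library stood apart before any comparison, because 2909 of its 7702 barcodes failed the filter, at a median of 672 UMIs. No difference between these single libraries could be set against replicates, and no test was run. Intervals in brackets are exact 95% intervals for counting error only.

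Neutrophils store antimicrobial proteins in granules that are filled in a fixed order. Primary granule genes such as Mpo and Elane are transcribed in promyelocytes, and secondary granule genes such as Ltf, Camp and Ngp are switched on in the next stage, the myelocyte, under the transcription factor C/EBP epsilon. S100a8 and S100a9 are made in very large amounts in the neutrophil cytoplasm and in monocytes.

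The starts of 9 of these genes were matched in RefSeq (GRCm38.p6). Windows of the 250 bases before each start were searched on both strands for a C/EBP core spelled TTGCNNAA, which reads as TTNNGCAA on the other strand, and for a PU.1 core spelled GAGGAA, which reads as TTCCTC on the other strand. C/EBP and PU.1 factors are the classical regulators of granulocyte genes, and the search describes what the members share in sequence. The C/EBP spelling was present in 5 of 9 member windows, those of S100a9, Ngp, Ltf, Lcn2 and Fcnb, against 9.56% of 32851 windows of the same length. The PU.1 spelling was present in 4 of 9, those of S100a8, Ltf, Lcn2 and Cd177, against 23.3% of all windows. Those 2 spellings did not overlap each other in any member window. The windows of S100a9, Ngp, Ltf and Fcnb are printed here because their C/EBP matches lie outside annotated exons. Capitals mark the match, the strand of the gene is shown, and any part that GENCODE release 21 places in an exon was left off.
S100a9 (chr3:90695722-90695971, minus strand): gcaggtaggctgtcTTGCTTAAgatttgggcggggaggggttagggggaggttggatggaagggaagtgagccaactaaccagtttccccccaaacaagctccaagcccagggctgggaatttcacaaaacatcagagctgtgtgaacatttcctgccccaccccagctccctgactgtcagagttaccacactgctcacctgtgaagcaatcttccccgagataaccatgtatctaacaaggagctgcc
Ngp (chr9:110419558-110419746, plus strand): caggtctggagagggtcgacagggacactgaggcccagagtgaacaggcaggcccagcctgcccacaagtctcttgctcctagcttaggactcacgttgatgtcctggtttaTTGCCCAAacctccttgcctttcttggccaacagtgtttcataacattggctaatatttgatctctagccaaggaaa
Ltf (chr9:111019042-111019270, plus strand): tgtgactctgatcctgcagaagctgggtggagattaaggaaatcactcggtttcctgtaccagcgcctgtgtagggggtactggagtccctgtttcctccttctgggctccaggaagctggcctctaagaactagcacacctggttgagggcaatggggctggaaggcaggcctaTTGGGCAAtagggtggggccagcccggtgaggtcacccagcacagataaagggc
Fcnb (chr2:28084886-28085128, minus strand): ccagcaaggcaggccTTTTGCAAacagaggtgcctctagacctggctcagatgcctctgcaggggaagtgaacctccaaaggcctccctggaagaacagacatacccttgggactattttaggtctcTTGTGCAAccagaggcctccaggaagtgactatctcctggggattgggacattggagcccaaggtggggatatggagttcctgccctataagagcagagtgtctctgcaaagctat
The match began 236 bases before the start of S100a9, 138 before Ngp, 75 before Ltf, and 235 and 123 before Fcnb. Ngp had another match 11 bases before its RefSeq start, inside an exon of the other annotation. These are matches of letters, and no binding was measured. The S100a8 and S100a9 genes are neighbours on chromosome 3 (90668978 to 90670035 and 90692632 to 90695721), with 22596 bases between them. Camp, Ngp and Ltf lie on chromosome 9 (109847379 to 109849617, 110419747 to 110423012 and 111019271 to 111042767), with gaps of 570129 and 596258 bases.

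Over whole libraries, all 10 genes had their highest level in the Mll4-labelled and their lowest in the Mll3/4-labelled library. Together they made up 0.0879% of all UMIs in the control. Their share was 0.0343%, 0.630% and 0.000427% in the libraries labelled Mll3, Mll4 and Mll3/4. The median log2 ratio to control of the 10 genes was -1.31, 2.51 and -7.83 in the mutant libraries, where all 6125 genes that averaged 20 CPM or more over the libraries had medians of 0.10, -0.13 and -0.11. In a sum over cells, fewer cells of a type and less RNA per cell cannot be told apart; the counts per cell are given further on.

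Calprotectin is the zinc-binding complex of the S100a8 and S100a9 proteins. S100a8 was at 235 CPM in the control (232 to 238). It was at 76.7 (75.0 to 78.4), 2290 (2280 to 2300) and 1.61 CPM in the libraries labelled Mll3, Mll4 and Mll3/4. S100a9 was at 312, 107, 2380 and 1.63 CPM in the same order. The log2 ratios of S100a8 to control were -1.62, 3.29 and -7.19, and those of S100a9 were -1.55, 2.93 and -7.58. The pair supplied 62.2%, 53.4%, 74.2% and 76.0% of the UMIs of the 10 genes in the 4 libraries.

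Camp codes for the antimicrobial peptide cathelicidin, and it had the most UMIs of the 8 granule genes in every library. It was at 151 CPM in the control (149 to 153) and, in the order used so far, at 64.6, 559 and 0.512 (0.334 to 0.750) in the mutant libraries. Ngp, a cystatin-like protein of neutrophil granules, was at 85.2, 43.6, 474 and 0.315 CPM. Both followed the order Mll4-labelled, control, Mll3-labelled, Mll3/4-labelled. Their counting intervals did not overlap between libraries, but these treat UMIs as independent and leave out the spread between cells. The 73 control cells with the most Camp UMIs held 99.1% of them, and the top 61 Mll3-labelled cells held 99.4%. The separation of the intervals therefore does not by itself establish the order. Lcn2, which binds bacterial iron carriers, was at 36.9, 19.7, 179 and 0.0788 CPM. Ltf, the iron-binding lactoferrin that defines secondary granules, was at 15.6, 4.68, 108 and 0.0394 CPM. The last value was 2 UMIs, and the ratio to control was 0.00253 (0.000306 to 0.00916).

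Chil3 codes for the chitinase-like protein Ym1, which myeloid cells other than neutrophils also make. It was at 29.6, 20.2, 154 and 0.0394 CPM, a log2 ratio of -0.55 (-0.63 to -0.47) in the Mll3-labelled library. Fcnb, a ficolin of the lectin complement pathway, was at 4.75, 4.07 and 27.9 CPM, and had 0 UMIs in the Mll3/4-labelled library. Fcnb was thereby the member closest to control in the Mll3-labelled library, at a log2 ratio of -0.22 (-0.41 to -0.04). Cd177, a surface glycoprotein of neutrophils, was at 1.96, 0.746 and 10.8 CPM, again with 0 UMIs in the last library. Against a limit of 3 UMIs in that library (0.0591 CPM), Fcnb was at least 80.4-fold lower and Cd177 at least 33.2-fold lower than in the control. Wfdc21, a small protein with a WAP domain, was at 7.18, 2.39, 109 and 0.0394 CPM. Its log2 ratio of 3.92 (3.82 to 4.02) was the highest among the 10 in the Mll4-labelled library.

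Read against a 2-fold bound, 6 of 10 members were lower in the Mll3-labelled library: S100a8, S100a9, Camp, Ltf, Cd177 and Wfdc21. All 10 were higher in the library labelled Mll4 and all 10 were lower in that labelled Mll3/4. Of the 8 members that averaged 20 CPM or more (Fcnb and Cd177 did not), 5 were lower in the Mll3-labelled library, where 0.457% of the 6125 genes were at least 2-fold lower, and 0 were higher, as 1.09% of genes were. For the library labelled Mll4, 8 of 8 were higher, as 4.96% of genes were, and 0 were lower, as 3.30% were. For the library labelled Mll3/4, 8 of 8 were lower, as 10.5% of genes were, and 0 were higher, as 6.09% were. Members that pass a minimum set on the mean can pass through the library where they are high.

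**Figure D1:**
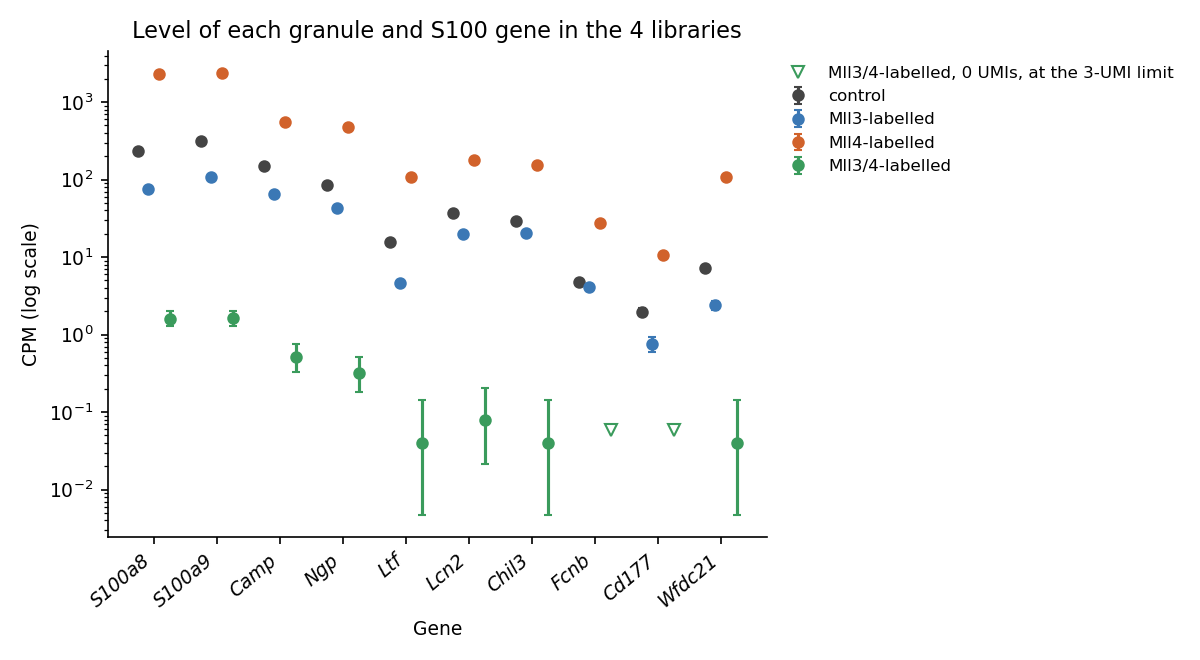
Level of the 10 genes in CPM on a log axis, 1 point per library with its exact 95% Poisson interval; open triangles mark 0 UMIs, drawn at the limit of 3 UMIs. The Mll4-labelled points lie above and the Mll3/4-labelled points far below the control for every gene, and the Mll3-labelled points lie below the control.

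The library sums rested on very few cells. In the control, 8 of 7274 cells held 50% of the UMIs of the 10 genes, and the top 1% of cells (73 cells) held 98.3%. The same 50% came from 5 of 6101 cells in the Mll3-labelled and 24 of 4793 in the Mll4-labelled library. In the Mll3/4-labelled library it took 22 cells, since that library had only 217 UMIs of the 10 genes in all. The highest single cell held 2712 S100a8 UMIs in the control, and 1157, 9340 and 6 in the libraries labelled Mll3, Mll4 and Mll3/4. Among control cells with any S100a8, 80.2% had exactly 1 UMI, and the 26 cells with at least 10 UMIs held 97.7% of the gene's total.

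Cells were called granule-high where the 8 genes other than S100a8 and S100a9 gave at least 0.1% of a cell's UMIs. This is a range of a score and not a cell type. There were 25 such cells in the control, 0.344% of cells (0.223 to 0.507), 14 in the Mll3-labelled library, 0.229% (0.126 to 0.385), and 95 in the Mll4-labelled library, 1.98% (1.61 to 2.42). The Mll3/4-labelled library had 1, 0.0211% (0.000533 to 0.117). The control and Mll3-labelled intervals overlap, so a difference in the number of these cells between those 2 libraries was not detectable at this depth. The cut was not close to most cells in the first 2 libraries: bounds of 0.05% and 0.2% gave 28 and 22 cells in the control and 15 and 12 in the Mll3-labelled library. They gave 148 and 83 in the Mll4-labelled library. The single Mll3/4-labelled cell did not reach 0.2%, and with 0 of 4748 cells the share could be up to 0.0777%.

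**Figure D2:**
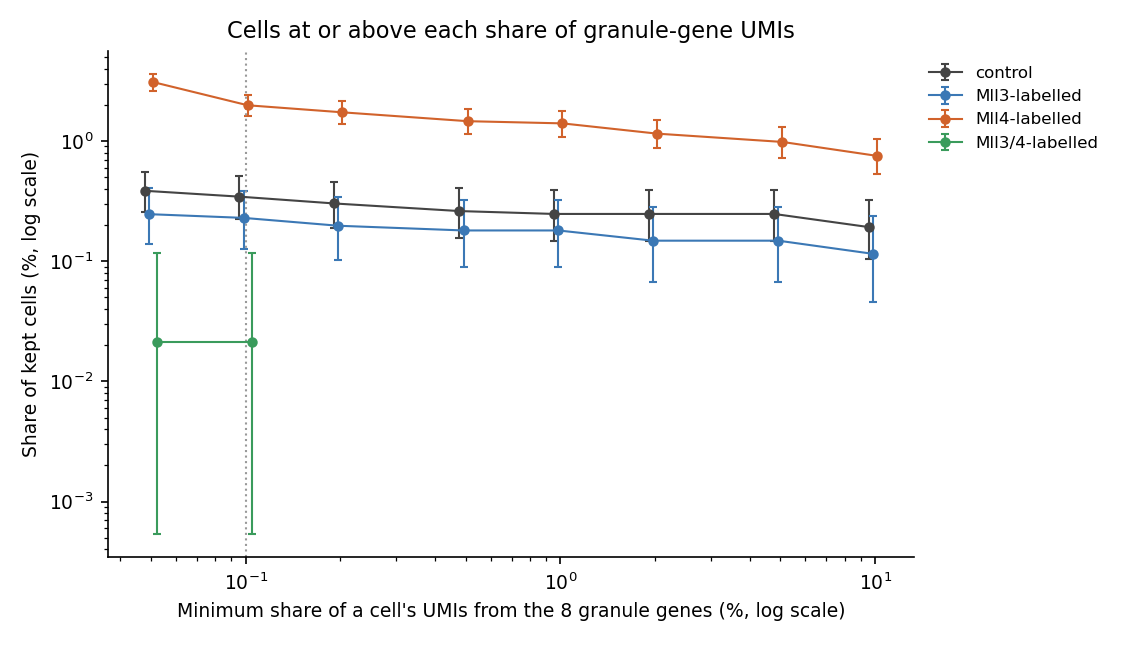
Share of kept cells (log axis) in which the 8 granule genes reach a given minimum share of UMIs (log axis), per library, with exact 95% binomial intervals; the dotted line is the bound of 0.1%, and points with 0 cells are not drawn. The Mll4-labelled curve lies above the control at every bound, the control and Mll3-labelled intervals overlap, and the Mll3/4-labelled library has 1 cell at the lowest bounds and 0 from 0.2% on.

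These cells held 97.7%, 97.5% and 96.6% of all UMIs of the 10 genes in the control, Mll3-labelled and Mll4-labelled libraries, and 14.7% in the Mll3/4-labelled library. In the median granule-high cell the 10 genes made up 32.2%, 20.04% and 24.3% of the cell's UMIs in the first 3 libraries. A library's level could therefore be split into the number of these cells and the UMIs in each. Their share was 0.668 times the control's in the Mll3-labelled and 5.77 times in the Mll4-labelled library. S100a8 per granule-high cell was 564 UMIs on average in the Mll3-labelled library against 1090 in the control, a ratio of 0.516. It was 2770 in the Mll4-labelled library, a ratio of 2.53. Camp per granule-high cell was 482, 712 and 696 UMIs in the Mll3-labelled, control and Mll4-labelled libraries, so its Mll4-labelled ratio was 0.978. For Camp the Mll4-labelled library thus had more such cells but not more UMIs in each. Every other member had more UMIs per cell there, by ratios from 1.29 (Lcn2) to 4.02 (Wfdc21), with S100a9 at 2.04. These ratios are not scaled for depth. In the Mll3-labelled library Chil3 (1.09) and Fcnb (1.36) were the members not lower per granule-high cell. These averages cover 25, 14 and 95 cells of 1 library each, and median depth differed between them (16151, 15737.5 and 30458 UMIs in the control, Mll3-labelled and Mll4-labelled libraries). Within granule-high cells, Camp was at 42700, 31000 and 22800 CPM and S100a8 at 65600, 36300 and 90800 CPM in that order. S100a9 was at 86900, 50400 and 96700 CPM, Ltf at 4340, 2230 and 4380, and Wfdc21 at 1950, 1100 and 4280. On this depth-scaled measure Camp, Ngp, Lcn2, Chil3, Fcnb and Cd177 were lower in the Mll4-labelled library than in the control.

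The granule-high cells were not alike in their balance of primary and secondary granule genes. UMIs of Camp, Ngp, Ltf and Lcn2 ran from 0 to 1800 per 10000 in control cells (median 1060), from 0 to 1550 in Mll3-labelled cells (727) and from 0 to 1360 in Mll4-labelled cells (432). UMIs of the primary granule genes Mpo, Elane, Prtn3 and Ctsg ran from 0 to 596 (4.24), from 0 to 731 (46.4) and from 0.773 to 482 (10.7). Secondary granule and calprotectin levels were high in the same cells (Spearman 0.95, 0.89 and 0.86 over 25, 14 and 95 cells), and for secondary against primary levels the values were -0.35, -0.13 and -0.71, with no clear direction in the Mll3-labelled cells. Each correlation is a description of cells that share 1 library and 1 selection.

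With a bound of 100 UMIs per 10000 on each axis, set after the values had been seen, 17 of 25 control, 6 of 14 Mll3-labelled and 50 of 95 Mll4-labelled cells were rich in secondary and poor in primary granule transcripts. Those cells gave a comparison at a like position. In them the median S100a8 level per 10000 UMIs was 934 in control cells, 589 in Mll3-labelled and 1580 in Mll4-labelled cells. The median S100a9 level was 1250, 776 and 1580, and that of Wfdc21 was 24.9, 14.2 and 69.1. Camp went the other way in the Mll4-labelled library, at 603, 528 and 403. Ngp was at 375, 403 and 334, Lcn2 at 142, 192 and 125, and Chil3 at 113, 152 and 99.9. Those last 3 genes were also below the control in Mll4-labelled cells, and above it in Mll3-labelled cells. Ltf (64.1, 60.8 and 78.4), Fcnb (15.0, 15.4 and 13.9) and Cd177 (7.43, 6.99 and 6.92) lay close together. Cebpe, the gene of C/EBP epsilon, was at 8.67, 12.6 and 3.85.

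Cells with at least 100 primary and under 100 secondary granule UMIs per 10000 numbered 5, 2 and 21. In the 5 control cells the median levels per 10000 UMIs were 6.52 for Chil3, 3.66 for Fcnb and 7.97 for Wfdc21, against 1.22 for Camp and 0 for Ngp and Ltf. Ltf had no UMI in any of these 5 cells, and S100a8 was already present in all 5, at a median of 29.5 per 10000. The 21 Mll4-labelled cells had medians of 8.72 for Chil3, 1.25 for Fcnb, 6.90 for Wfdc21, 112 for S100a8 and 82.9 for S100a9. These medians mix unlike cells. Some of the 21 lay just under the bound, at secondary levels of 84.6 to 94.8, and others ran down to 0. Some cells that passed both bounds lay just above, at 104 to 110. Both bounds were passed by 1, 4 and 10 cells. The remaining 2 control and 2 Mll3-labelled cells had no S100a8, S100a9, Camp, Ngp, Ltf, Lcn2 or Wfdc21 UMI at all. They held Chil3 (medians of 21.9 and 17.6 per 10000), Lyz2 (227 and 476) and F13a1, with UMIs in all 4 cells, and Lyz2 and F13a1 are genes that monocytes express. The remaining 14 Mll4-labelled cells were shallow, at a median of 3334.5 UMIs.

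**Figure D3:**
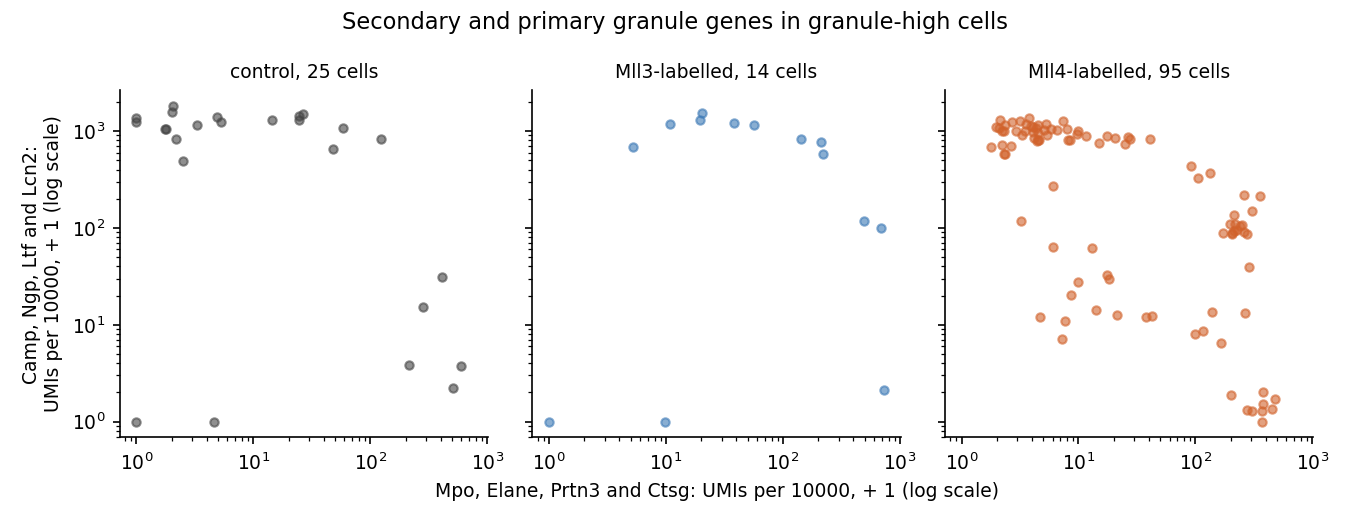
Each point is 1 granule-high cell, with primary granule UMIs per 10000 (Mpo, Elane, Prtn3 and Ctsg) on the x axis and secondary granule UMIs per 10000 (Camp, Ngp, Ltf and Lcn2) on the y axis, both plus 1 on log scales; the panels hold 25, 14 and 95 cells. In the control and Mll4-labelled panels most cells lie at the upper left, with many secondary and few primary granule transcripts, as do 6 of 14 Mll3-labelled cells; other cells lie at the lower right or are high on both axes.

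What else these cells carried was read from gene lists that the score did not use. Of the late granule genes, Hp (haptoglobin) had UMIs in 25 of 25 control cells, at 1730 CPM against 5.90 CPM in the other control cells. Cybb, the catalytic subunit of the NADPH oxidase, was at 1390 CPM against 3.41, and Lyz2, lysozyme, at 11700 CPM against 246. The other cells of the Mll4-labelled library held more of these, with Hp at 993 CPM against 81.0, Cybb at 1220 against 237 and Lyz2 at 9180 against 1180. Of the genes of mature neutrophils, Csf3r, the receptor of the growth factor G-CSF, had UMIs in 15 of 25, 8 of 14 and 62 of 95 cells. Retnlg had UMIs in 11, 3 and 34 cells, the chemokine receptor gene Cxcr2 in 7, 2 and 27, Il1b in 0, 0 and 15, and Ly6g in 6, 4 and 16. Against other cells, Csf3r was at 79.1 and 37.5 CPM in the control and 44.8 and 22.8 in the Mll4-labelled library. Cxcr2 was at 24.0 and 1.60, and 19.3 and 8.14, and Retnlg at 55.2 and 0.0505, and 61.4 and 0.0509. The late granule protease gene Mmp8 had them in 3, 1 and 5. The stem cell gene Hlf had UMIs in 1 of 25 control cells, at 14.4 CPM against 292 CPM in the others. Of 10 B-lineage genes, 9 had no UMI in the 25 control cells. Monocyte and mast cell genes differed by library: the protease gene Cma1 had UMIs in 0 of 25, 0 of 14 and 43 of 95 cells, and Ms4a6c in 6, 2 and 59. Other cells of the Mll4-labelled library held more of these transcripts. Cma1 was at 158 CPM in its granule-high cells against 466 CPM in the others, and Ms4a6c at 235 against 385. The part of these transcripts in the higher member levels was not tested.

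Genes of the LSK sort were low in the control's granule-high cells, and Ptprc, which codes for CD45, was not (230 CPM against 146). Ly6a, which codes for Sca1, had UMIs in 3 of 25 control cells, at 7.20 CPM against 93.8 CPM in the others. Kit was at 45.6 CPM against 215, and Cd34 at 31.2 against 333. The antibody tags showed the same direction for CD117, the Kit protein, with a median of 46 tags per granule-high cell against 217 in the other control cells, and 33 against 171 for CD34. The CD117 medians were 131 and 171 in the Mll4-labelled library. Surface gates built from CD150, CD48 and CD135 placed 24 of 25 control, 12 of 14 Mll3-labelled and 90 of 95 Mll4-labelled granule-high cells in the MPP3 (CD150-CD48+CD135-) or MPP4 (CD150-CD135+) gates. MPP3 and MPP4 are the myeloid-biased and lymphoid-primed multipotent progenitor gates. Of all kept cells, the MPP3 gate held 44.3%, 22.3% and 69.7% in the same order of libraries. The MPP4 gate held 12.1%, 10.6% and 13.7%, so most Mll4-labelled cells of any kind lay in these gates. With tags that were not centred per cell, 60.0% of the control and 60.0% of the Mll4-labelled granule-high cells fell there. The stem cell gate (HSC, CD150+CD48-CD135-) held 0, 1 and 2 of them.

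A UMI of one of these genes in a cell is not by itself a sign that the cell made it, since RNA freed from broken cells enters every droplet. S100a8 had at least 1 UMI in 7.15% of control cells (6.57 to 7.77), 3.54% of Mll3-labelled, 75.9% of Mll4-labelled (74.7 to 77.1) and 1.28% of Mll3/4-labelled cells. After thinning each cell to 3000 UMIs these shares were 2.25%, 0.805%, 28.5% and 0.318%, with 14, 17, 134 and 33 cells left out as too shallow. Camp was in 3.33%, 1.72%, 25.0% and 0.232% of cells, and Lcn2 in 1.44%, 1.48%, 11.2% and 0.0842%.

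Barcodes and cells that should lack these transcripts had like shares. S100a8 had UMIs in 75.4% of kept Mll4-labelled cells outside the granule-high range, 73.9% of HSC-gate cells, 79.2% of cells with at least 3 UMIs from 10 B-lineage genes, and 74.6% of failing barcodes, counting those with under 1% granule UMIs. The median depths of those sets were 21184, 24880, 37478 and 672 UMIs. Camp had UMIs in 23.6%, 25.0%, 29.1% and 24.3% of the same sets, and Lcn2 in 9.81%, 10.1%, 12.2% and 9.59%. The mean count was less alike than the share: such a failing barcode carried 1.61 S100a8 UMIs, an HSC-gate cell 1.82, an MPP3-gate cell 3.17, and a kept cell outside the granule-high range 2.85. In the control the S100a8 shares were 6.86%, 5.79%, 11.1% and 6.16%, and in the Mll3-labelled library 3.37%, 3.14%, 3.49% and 2.62%. In each of these 3 libraries the share of kept cells with S100a8 outside the granule-high range was thus close to that in failing barcodes, and such a share is not counted here as cells that express the gene. How much of the S100a8 in these cells was free RNA was not tested.

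**Figure D4:**
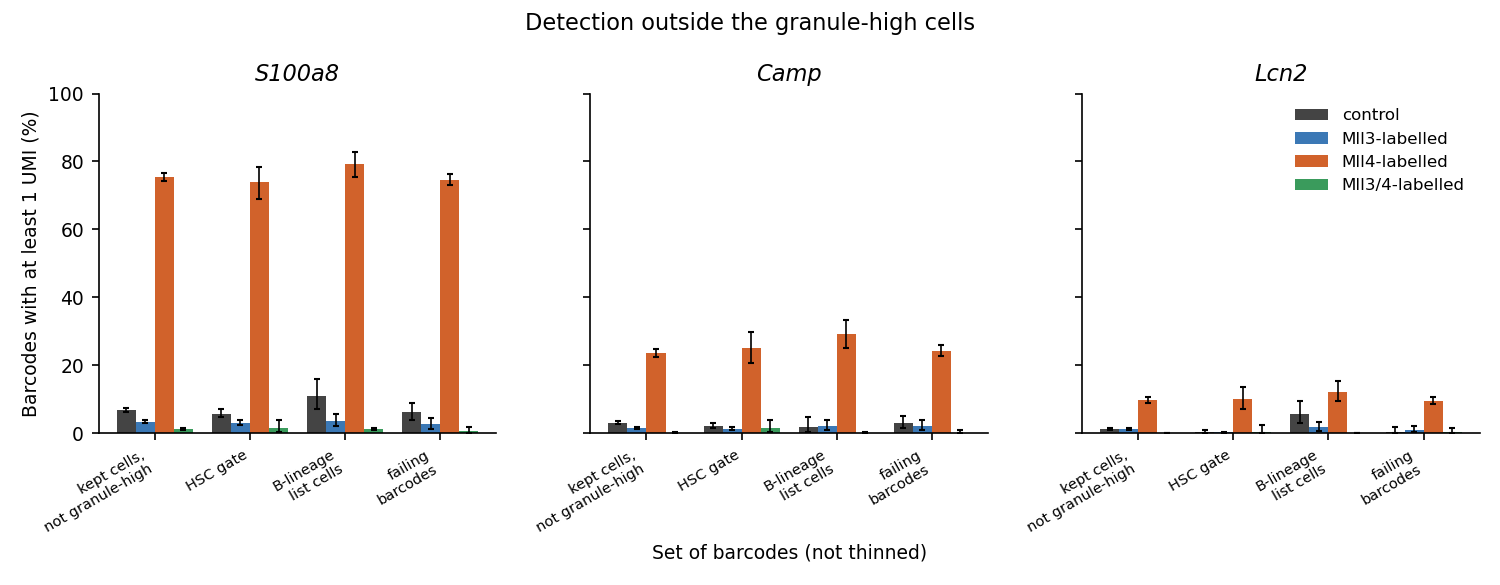
Share of barcodes with at least 1 UMI of S100a8, Camp and Lcn2, without thinning, in kept cells outside the granule-high range, HSC-gate cells, cells with at least 3 B-lineage UMIs and failing barcodes, with exact 95% binomial intervals. Within the Mll4-labelled library the S100a8 bars lie between 73.9% and 79.2% in all 4 sets, and Camp and Lcn2 are flat in the same way at lower levels.

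One source of free RNA keeps its genes in 1 ratio in every set, and the make-up of the 10 genes was compared on that basis. In the control the ratio of S100a8 to S100a9 UMIs was 0.755 (0.743 to 0.767) in granule-high cells, 0.725 (0.639 to 0.823) in cells with 1 or 2 UMIs of the 10 genes, and 0.581 (0.389 to 0.857) in failing barcodes. In the Mll3-labelled library it was 0.719, 0.682 and 0.682. The granule-high cells of the Mll4-labelled library were at 0.939 (0.934 to 0.944), and the other sets differed from them, at 1.45 (1.32 to 1.61) and 1.39 (1.33 to 1.46). S100a8 made up 35.8% of the UMIs of the 10 genes in the granule-high cells of that library, 44.2% in cells with 1 or 2 such UMIs and 43.8% in failing barcodes, and S100a9 38.2%, 30.4% and 31.4%. The low cells and the failing barcodes of the Mll4-labelled library thus had like shares of both genes, and the captured granule-high cells had other shares. The ratio of the 4 secondary granule genes to calprotectin was 0.533 (0.526 to 0.541), 0.381 (0.338 to 0.429) and 0.239 (0.152 to 0.364) in those sets of the control. By this ratio the control's low cells and failing barcodes also differed from its granule-high cells. It was 0.729, 0.449 and 0.541 in the Mll3-labelled and 0.287, 0.255 and 0.253 in the Mll4-labelled library.

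**Figure D5:**
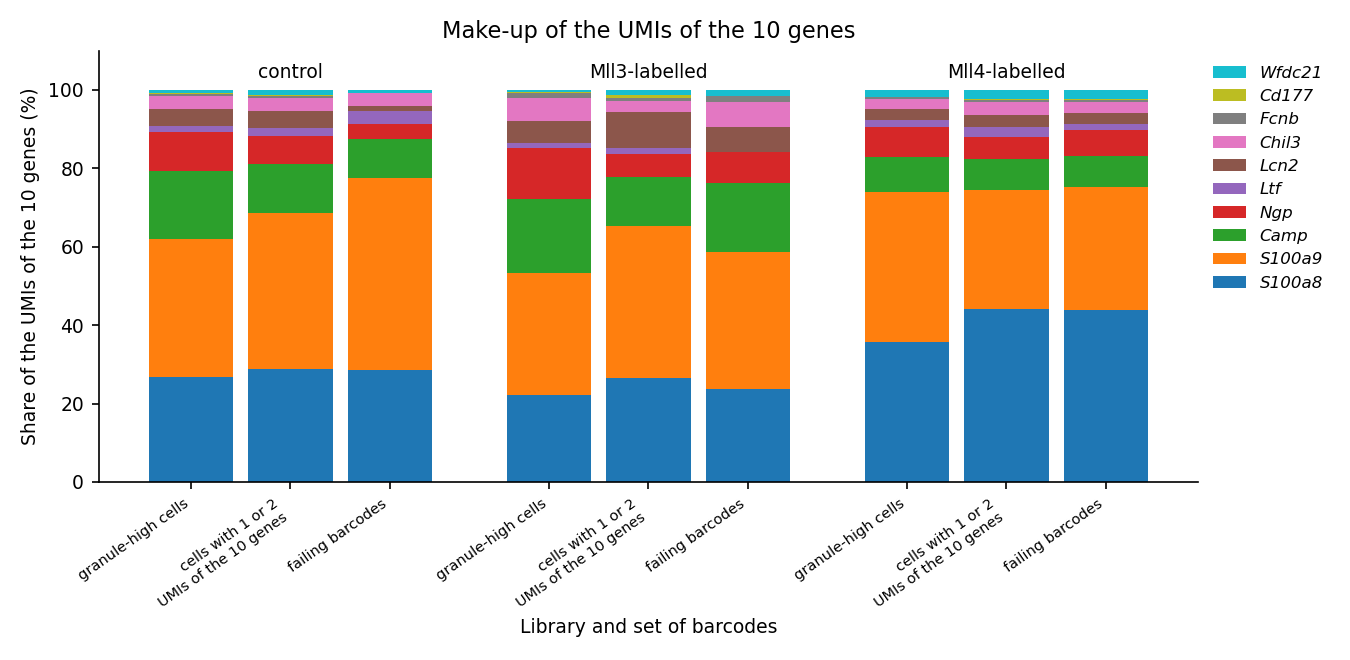
Stacked bars give each gene's percent of the UMIs of the 10 genes in granule-high cells, in cells with 1 or 2 such UMIs and in failing barcodes, for the control, Mll3-labelled and Mll4-labelled libraries. In the Mll4-labelled library S100a8 is 35.8% in granule-high cells against 44.2% and 43.8% in the other sets.

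Some S100a8 lay in neither pattern. Among Mll4-labelled cells, 101 had at least 10 S100a8 UMIs without being granule-high, with a median of 21 UMIs at a median depth of 38693 UMIs. The MPP3 gate, with 69.7% of all kept cells of that library, held 87 of these 101. The highest of these cells held 961 S100a8 UMIs, when the highest S100a9 count outside the granule-high range was 72. The control had 3 such cells and the other libraries had 0. Without the granule-high cells, S100a8 was at 5.88, 2.14, 114 and 1.52 CPM in the 4 libraries, and its log2 ratios to control were -1.46, 4.27 and -1.95. Camp was at 2.05, 0.937, 11.7 and 0.256 CPM, with log2 ratios of -1.13, 2.51 and -3.00. The order of the libraries was thus the same in this remainder as in the whole libraries for both genes. Lcn2 was an exception in the Mll3-labelled library, at 1.21 CPM against 0.976 in the control, a log2 ratio of 0.31 (-0.06 to 0.69). Haemoglobin, the usual marker of RNA from broken red cells, was also high in the Mll4-labelled library, where all 4 of its genes were higher (log2 ratios of 3.01 to 8.49), and its part in the member levels was not tested. Hbb-bs was at 5.43, 4.20, 619 and 152 CPM. In the Mll3/4-labelled library, where the members were below control, 3 of the 4 were above it, and Hbb-bt had a log2 ratio of -0.58.

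Across the surface gates the remainder varied less than the whole in the first 3 libraries. Without granule-high cells the 10 genes together were at 15.9 to 24.4 CPM over the 6 gates of the control. The ranges were 4.99 to 12.1, 138 to 279 and 2.79 to 6.22 CPM in the libraries labelled Mll3, Mll4 and Mll3/4. In the Mll4-labelled library S100a8 alone was at 143 CPM (136 to 150) in the MPP4 gate and 64.3 (58.2 to 70.9) in the MPP1 gate. In UMIs per cell the MPP4 gate was not the highest, at 2.38 against 3.17 in MPP3, 2.74 in MPP2 and 1.56 in MPP1. With granule-high cells, the MPP4 gate was highest in the first 3 libraries, at 3840, 1320 and 22200 CPM, and the HSC gate was at 18.0, 76.0 and 2250 CPM. The place of these cells depended on centring the tags: the MPP4 gate held 53.5% of the control's UMIs of the 10 genes with centring and 13.7% without, and the MPP1 gate 0.255% and 39.4%. For Mll3-labelled cells the MPP4 gate held 38.7% and 15.8%, and for Mll4-labelled cells 33.0% and 30.7%. The Mll3-labelled and Mll4-labelled HSC values rest on 1 and 2 granule-high cells, and without these they were 6.52 and 158 CPM.

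Genes of the same program were read over whole libraries beside the members. Primary granule genes were all tested, and none of the 6 was 2-fold higher in the Mll3-labelled library, where Serpinb1a, an inhibitor of the granule proteases, was the only one 2-fold lower (log2 ratio -1.19). The list's median there was 0.18. Mpo (myeloperoxidase) was at 174 and 196 CPM in the control and Mll3-labelled library, Elane (neutrophil elastase) at 124 and 171, Prtn3 at 526 and 691, and Ctsg at 156 and 177. Those 4 primary granule genes were therefore not lower than in the control in the library where 6 of the 10 members were at least 2-fold lower. In the Mll4-labelled library 5 of 6 were at least 2-fold higher (median 3.72), with Mpo at 3780 CPM and Elane at 2000. In the Mll3/4-labelled library all 6 were lower (median -4.82), with Mpo at 11.3 CPM and Elane at 9.73.

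In the Mll4-labelled library most UMIs of the primary granule genes lay outside the granule-high cells. Mpo was at 3800 CPM outside the granule-high cells and 3120 CPM within them, and Elane at 1960 and 3650. The number of cells with primary granule UMIs was not compared. Camp in the same sets was at 11.7 and 22800 CPM.

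Of 11 other late granule genes, 5 reached 20 CPM. None of these differed 2-fold in the Mll3-labelled library. Lyz2, Cybb and Hp were higher in the library labelled Mll4, and 4 were lower in that labelled Mll3/4, where Anxa1 was at 90.6 CPM against 87.0 in the control. Of 10 regulators of the neutrophil fate, 5 reached 20 CPM. Cebpb and Irf8 were higher in the Mll4-labelled library, with log2 ratios of 1.12 and 2.19. Spi1, the gene of PU.1, was at 123, 123, 166 and 6.04 CPM, and Runx1 at 111, 119, 132 and 80.7. Runx1 was the 1 of these 5 regulators not 2-fold lower in the Mll3/4-labelled library. Cebpe, below the minimum, was at 5.26, 4.00, 28.9 and 0.0394 CPM.

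Of 8 genes of receptors and partners of these proteins, 3 reached 20 CPM. Among these, Itgb2, the beta-2 integrin chain, was the only one past 2-fold, in the Mll4-labelled library (log2 ratio 2.18). At 11.5, 8.84, 52.4 and 18.8 CPM in the 4 libraries, it reached the minimum only through that library. Partners below the minimum were not called, and their log2 ratios in the Mll4-labelled library ran from 0.06 to 6.82. Bsg, which codes for a calprotectin-binding receptor, was at 256, 313, 218 and 171 CPM. None of the 6 other S100 genes that reached 20 CPM was 2-fold higher in the Mll4-labelled library, where S100a8 and S100a9 were. S100a10 was at 282, 149, 101 and 311 CPM, S100a11 at 186, 91.9, 206 and 104, and S100a13 at 84.3, 54.7, 104 and 141. S100a6, S100a1 and S100a4 were at least 2-fold lower in the Mll3/4-labelled library, at log2 ratios of -2.27, -2.37 and -5.14.

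The genes whose pattern over control cells was most like that of the summed 10 genes were Lrg1, C3, Trem3, Ifitm6, Hp, Cybb, Clec4a2, Mcemp1, Cebpe and Hsd11b1. Likeness was Pearson's r of the log-scaled level per cell over 7274 cells, among 12355 genes, and ran from 0.68 for Lrg1 to 0.57 for Hsd11b1. These cells share 1 library, and the 25 granule-high cells held from 41.5% (Trem3) to 78.1% (Ifitm6) of the UMIs of these 10 genes. Over libraries, Lrg1 was at 1.05, 0.812, 2.68 and 0 CPM, Ifitm6 at 3.33, 1.44, 17.7 and 0, and C3 at 2.82, 2.29, 17.5 and 0.236. Trem3 (4.20 and 4.59) and Hp (11.9 and 14.7) were not lower in the Mll3-labelled library than in the control.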

How the data were processed

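Raw UMI counts and antibody tag counts per barcode were deposited by the authors in sparse matrices of 32285 genes and 6 antibodies, made with Cell Ranger 6.1.1 on mm10 per the submitters' processing notes. The chemistry was 10x 3' with feature barcodes per the labels. Each UMI stands for 1 captured 3' end, so the counts are not scaled by transcript length.

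The 10 members, the gene lists and the alternatives were chosen with earlier results of these data known. Groups came from the sample titles, with 1 library each. From the counts, UMIs per 1000000 of the library total, exact Poisson and Clopper-Pearson intervals and exact conditional intervals of ratios were computed with numpy 2.4.6 and scipy 1.17.1. A count of 0 was set to 3 UMIs in ratios. The intervals were tested on simulated counts. Doublets were not removed; the alternative took out the highest Scrublet scores (scanpy 1.11.5), 423, 298, 184 and 180 cells in the order control, Mll3, Mll4 and Mll3/4. Gates used centred log ratios (natural log) and 1 Gaussian mixture crossing per antibody (scikit-learn 1.9.0). edgeR 4.0.16 and DESeq2 1.42.0 supplied other scalings only.

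Named were all members, at most 4 genes of each list by mean level plus genes whose absence defines a type, and the 10 genes most like the members in the control. The genes named with the ranges of granule-high cells, and S100a10 to S100a1 beyond the first 4, were chosen after their values were seen. Coordinates of genes are from GENCODE release 21 on GRCm38, the build of mm10, and promoter sequences from RefSeq, GRCm38.p6. Replicates, and with them p-values, were not available to these comparisons.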

Additional observations from a re-analysis of the deposited data

How the results depend on the processing

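No paired analysis was possible because each genotype has 1 library. In every alternative scaling, filter and doublet setting, all 10 members stayed above control in the library labelled Mll4 and below it in those labelled Mll3 and Mll3/4. The exceptions arose when granule-high cells were left out: Lcn2 in the Mll3-labelled library, and Cd177 in the Mll3/4-labelled library at 0.01, where 0 UMIs were set to 3 against 7 in the control. Leaving those cells out moved the median log2 ratio to 2.84 (Mll4-labelled) and -2.78 (Mll3/4-labelled). Leaving out the 10 cells richest in each gene, when the Mll3-labelled library had 14 granule-high cells, moved the medians to -3.52, 3.81 and -6.73. The Mll4-labelled median was 2.13 with cells of 2000 genes or more and 5% mitochondrial UMIs or less, 2.42 without the highest doublet scores and 2.18 with equal weight per cell.

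The granule-high share was 0.550% in the control under that stricter filter. In the Mll4-labelled library it was 6.73% with cells of 500 genes or more and 20% mitochondrial UMIs or less, where 1 UMI can pass the bound in a shallow barcode, 3.09% at a bound of 0.05% and 1.40% at 1%, a bound added after the data were seen. In the Mll3/4-labelled library it was 0 at 0.2% and at 1%. The share of cells with any member, at 3000 UMIs 6.05%, 2.60%, 48.2% and 0.912%, was 19.6%, 11.3%, 94.1% and 2.55% without thinning, 3.58%, 1.80% and 36.7% at 2000 UMIs in the first 3 libraries, and 8.41%, 4.25%, 60.7% and 1.61% at 5000. Without centring, 60.0% of granule-high cells of the control and 60.0% of the Mll4-labelled library were in the MPP3 and MPP4 gates. At a minimum of 100 CPM, 1 late granule gene was higher in the Mll4-labelled and 1 lower in the Mll3/4-labelled library, and 0 regulators were higher in the Mll4-labelled and 1 was lower in the Mll3/4-labelled library. At 5 CPM, 1 and 7 regulators were higher in the libraries labelled Mll3 and Mll4, and 7 were lower in that labelled Mll3/4. Depth limits members at 0 to 4 UMIs in the Mll3/4-labelled library.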

Other observations

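S100a16, another S100 gene, was above control in the Mll3/4-labelled library, where S100a8 and S100a9 were below it; its log2 ratios of -0.68 and 2.81 in the libraries labelled Mll3 and Mll4 had their direction. It was counted 9 times in the control (0.0754 CPM), and 5, 64 and 1627 times in the libraries labelled Mll3, Mll4 and Mll3/4, a log2 ratio of 8.73 in the last (32.0 CPM). It was singled out after its value was seen. Fpr2, which codes for a receptor of the cathelicidin peptide, had 16, 1, 1829 and 1 UMIs in the same 4 libraries, and was chosen in the same way.

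Olfm4, a gene that only some neutrophils express, had 0 UMIs in the control, 31 in the Mll3-labelled and 152 in the Mll4-labelled library. All 31 lay in 1 of the 14 granule-high cells, and 151 of the 152 lay in 2 of the 95, when Camp had UMIs in 11 and 85 of those cells. In the Mll3/4-labelled library the only granule-high cell held 13 Camp, 5 Ngp, 7 S100a9 and 5 S100a8 UMIs of its 13061. The same cell held 41 Vpreb1, 42 Cd79a, 34 Ebf1 and 13 Rag1 UMIs, genes of the B lineage, and 0 of Lyz2, Hp, Cybb and Mpo. Per UMI its Vpreb1 level (3140 CPM) was that of the other cells of its library (3140 CPM).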
